A study of Mus musculus with 2 samples.

Results

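Oxidative phosphorylation is carried out in the inner membrane of mitochondria by 4 respiratory complexes (I to IV), which pass electrons from NADH and succinate to oxygen, all but complex II pumping protons as they do so, and by the ATP synthase (complex V), which uses the proton gradient to make ATP. Most subunits are encoded in the nucleus, made in the cytosol and imported. A small core set is encoded by the mitochondrial genome and transcribed and translated inside the organelle, so that complexes I, III, IV and V need transcripts of both genomes, and complex II only nuclear ones. Photoreceptors are among the cells with the greatest energy use in the body, and their inner segments are packed with mitochondria. The genes examined here were all those whose symbol begins with Nduf, Sdha to Sdhd, Uqcr, Cox4 to Cox8 or Atp5, pseudogenes left out, and the 13 genes of the files that begin with mt-. This gave 105 of the 30905 genes in the files, 92 nuclear and 13 mitochondrial. The nuclear genes comprised 36 subunits of complex I, 4 of complex II, 8 of complex III, 19 of complex IV and 15 of complex V, together with 8 assembly factors of complex I (Ndufaf genes), the supercomplex factor Cox7a2l and Atp5s, a factor related to the ATP synthase. Ndufa4, once assigned to complex I, and its paralog Ndufa4l2 were counted with complex IV.

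Their transcripts were counted in single retinal cells of mouse pups at postnatal day 7 from 2 libraries. The Control library pooled 2 retinas of control pups, and the Mettl3-CKO library pooled 2 retinas of littermates that carried Six3-Cre and 2 floxed Mettl3 alleles. Six3-Cre acts in retinal progenitor cells (RPCs), most efficiently in the central retina, so that descendants of those cells lose Mettl3, the catalytic subunit of the enzyme that writes N6-methyladenosine on mRNA, whereas microglia, endothelial cells and pericytes do not descend from these cells. The alleles of the control pups and the sex of the pups were not given in the sources used here. With 1 library per group there was no replicate and no test. Every difference below is one between these libraries, pups and captures, which cannot be told apart from an effect of the genotype, and all 95% intervals cover counting error only.

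The matrices as read here ended early. Of 5995 barcodes of the Control library, 3994 complete cells with 22181683 UMIs (unique molecular identifiers, 1 per captured transcript) were read. Of 6992 barcodes of the Mettl3-CKO library, 3109 complete cells with 20830028 UMIs were read. The median cell had 4766 and 5441 UMIs. Several facts of the libraries touch the results. Mettl3 itself was at 39.5 and 33.1 CPM, a ratio of 0.837 (0.754 to 0.928); whether the counted 3′ end lies outside the deleted part was not examined, so this value may not check the label. Xist, which is transcribed in female cells, was seen in 0.751% of Control and 56.3% of Mettl3-CKO cells, so the pools differed in the share of cells from female pups. The libraries shared 5 cell barcodes. Among Control cells 237, and among Mettl3-CKO cells 86, had 200 genes or fewer, or 20% or more of their UMIs from mitochondria, and so lay outside the limits in the study's methods. In addition, 12.04% of the Control cells and 7.98% of those from Mettl3-CKO lay in 4 clusters with little of the nuclear RNA Malat1. Throughout, CPM is the number of UMIs per 1000000 UMIs of genes outside the mitochondrial genome, so that mitochondrial transcripts do not dilute nuclear ones. UMIs of 3′ libraries were not divided by transcript length.

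The first comparison was between the genomes. Over all cells, the nuclear genes were almost level between the libraries and the mitochondrial genes were lower in Mettl3-CKO. The nuclear genes made up 3.44% of non-mitochondrial UMIs in Control and 3.33% in Mettl3-CKO, a ratio of 0.970 (0.967 to 0.974). The mitochondrial genes made up 5.53% of all UMIs in Control and 4.19% in Mettl3-CKO. Relative to non-mitochondrial UMIs, their ratio was 0.747 (0.745 to 0.749). There were therefore 0.587 nuclear UMIs for each mitochondrial one in Control and 0.763 in Mettl3-CKO, a ratio of 1.30 (1.29 to 1.31), in which the library totals cancel. The 10 assembly and accessory factors went the other way from the subunits, from 758.8 to 916.4 CPM, a ratio of 1.21 (1.18 to 1.23).

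Member by member, the separation held within each genome. A member was read if it had at least 100 UMIs over both libraries, which kept 88 nuclear and all 13 mitochondrial genes. Of the others, Cox7b2 and Cox8c had no UMI, Cox8b had 5 and 1 UMIs in Control and Mettl3-CKO, and Cox6a2 had 1 and 1. These are isoforms of complex IV subunits known from muscle or testis. Of the 88 nuclear genes, 5 were at least 1.2-fold higher and 1 at least 1.2-fold lower in Mettl3-CKO, where over all 12088 non-mitochondrial genes read 16.5% were 1.2-fold higher and 8.54% were 1.2-fold lower. Of the 13 mitochondrial genes, 10 were 1.2-fold lower and 0 higher. At a fold of 1.5, 0 members passed in either direction, against 4.15% of all genes that were higher and 2.23% that were lower. Among the 78 nuclear subunits read, 65 were below a log2 ratio of 0, with a median of -0.08 and an SD between genes of 0.12. The counting interval lay below a ratio of 1 for 55 of them, above it for 8 and included it for 15. The median over all genes was 0.02, so the subunits lay about 0.1 on the log2 scale below it.

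**Figure D1:**
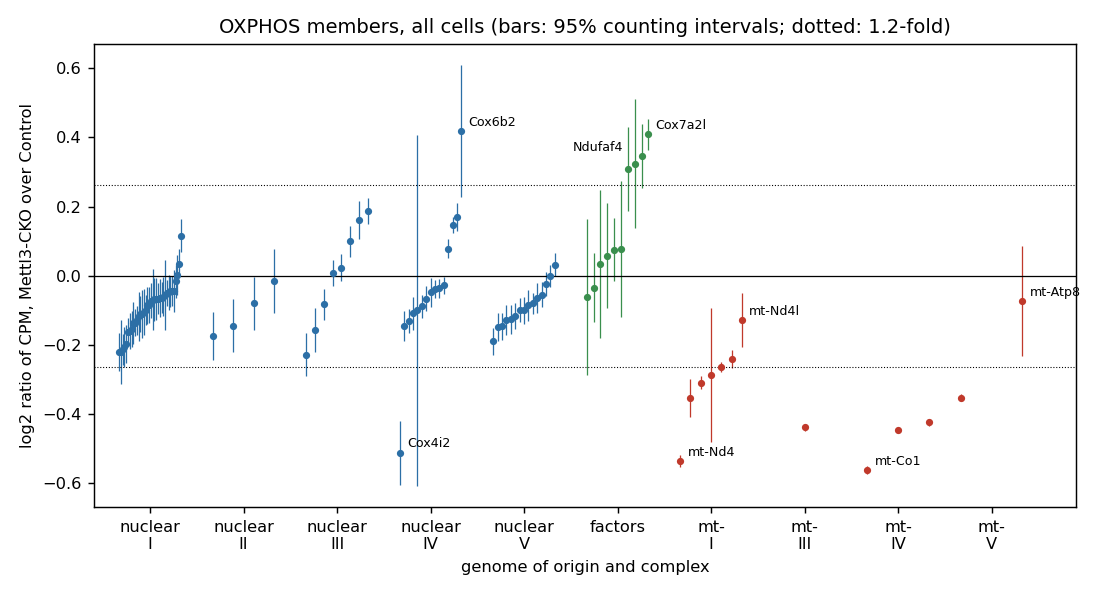
Log2 ratio of CPM, Mettl3-CKO over Control, of the 101 members with at least 100 UMIs, over all cells; each point is 1 gene, bars are 95% counting intervals, and dotted lines mark a 1.2-fold difference. The nuclear subunits (blue) lie close to 0 apart from Cox4i2 and Cox6b2, several assembly and accessory factors (green) lie above the upper line, and 10 of the 13 mitochondrial genes (red) lie below the lower one.

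The 13 mitochondrial genes encode 7 subunits of complex I, cytochrome b of complex III, the 3 catalytic core subunits of complex IV and 2 subunits of complex V. All 13 were below a log2 ratio of 0, from -0.56 to -0.07. The largest differences were in mt-Co1, the subunit that binds oxygen, which had 7843 CPM in Control and 5315 CPM in Mettl3-CKO (log2 -0.56, interval -0.57 to -0.55), and in mt-Nd4, with 3625 and 2501 CPM (-0.54). Next were mt-Co3 (-0.45), mt-Cytb (-0.44) and mt-Co2 (-0.42). These 5 genes thus include the whole core of complex IV. mt-Nd5 and mt-Atp6 were both at -0.35, mt-Nd2 at -0.31 and mt-Nd1 at -0.26. mt-Nd3 was at -0.24, short of the 1.2-fold line. The genes with the fewest UMIs had the widest intervals. mt-Nd6, the only one on the light strand, had 506 and 395 UMIs, with a log2 ratio of -0.29 (-0.48 to -0.09). For mt-Nd4l the value was -0.13 (-0.21 to -0.05), and for mt-Atp8, with 684 and 619 UMIs, -0.07 (-0.23 to 0.09), an interval that includes 0. mt-Atp8 overlaps mt-Atp6, mt-Nd4l overlaps mt-Nd4 and mt-Nd6 overlaps mt-Nd5, pairs whose reads the counting may not have divided, so these 3 values are uncertain. Summed by complex, the mitochondrial ratio was 0.785 for complex I, 0.738 for complex III, 0.723 for complex IV and 0.784 for complex V.

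The nuclear subunits differed less between complexes than the genomes did. Their summed ratio was 0.941 (0.935 to 0.946) in complex I, 0.924 (0.900 to 0.949) in complex II, 1.02 (1.01 to 1.03) in complex III, 0.995 (0.989 to 1.001) in complex IV and 0.945 (0.939 to 0.952) in complex V. In complexes I, III, IV and V, the nuclear ratio was thus above the mitochondrial ratio of the same complex. In complex I, 33 of 36 subunits were below 0, the lowest being the membrane-arm subunit Ndufa11 (log2 -0.22) and Ndufa9 (-0.22), and Ndufa12 the highest (0.12). All 4 subunits of succinate dehydrogenase, the enzyme shared with the citric acid cycle, were below 0, from -0.17 for the iron-sulfur subunit Sdhb to -0.01 for Sdhc. In complex III the core proteins Uqcrc2 (-0.23) and Uqcrc1 (-0.16) were lower, and the small subunit Uqcrq (0.19) and the Rieske protein Uqcrfs1 (0.16) were higher. In complex IV, Cox8a, the subunit with the most UMIs, was at 1410 CPM in Control and 1562 in Mettl3-CKO, a log2 ratio of 0.15 (0.12 to 0.17). In complex V, 14 of 15 subunits were below 0, the lowest being the central stalk subunit Atp5c1 (-0.19), and the catalytic subunit Atp5b was at -0.08. Uqcrh of complex III and Ndufv3 of complex I, those with the most UMIs of their complexes, were at 0.01 and -0.05. The 3 nuclear members on chromosome X, Ndufb11, Ndufa1 and Cox7b, were at -0.06, -0.08 and -0.11, within the range of the autosomal subunits.

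Among the 10 assembly and accessory factors, 4 were at least 1.2-fold higher in Mettl3-CKO, beside 16.5% of all genes, and the intervals of the other 6 included 0. Cox7a2l (also called SCAF1), which joins complex III to complex IV in supercomplexes, was at 344.3 CPM in Control and 457.4 in Mettl3-CKO (7215 and 9129 UMIs), a log2 ratio of 0.41 (0.37 to 0.45). Ndufaf4 was at 82.1 and 104.4 CPM, a log2 ratio of 0.35 (0.25 to 0.44). Ndufaf1, which works in the assembly of the membrane arm of complex I, was at 0.32 (0.14 to 0.51) and Ndufaf2 at 0.31 (0.19 to 0.43). The other complex I factors, Ndufaf3, Ndufaf5, Ndufaf6, Ndufaf7 and Ndufaf8, had values from -0.03 to 0.08, and Atp5s was at -0.06, each with an interval that includes 0. Cox7a2l supplied 7215 of the 15900 UMIs of this group in Control and 9129 of 18290 in Mettl3-CKO, more than any other member of it, so it weighs heavily in the summed ratio. Ndufaf2 overlaps 2 antisense genes, and the use of strand in counting was not stated. The other 3 genes overlap no gene of the files.

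The promoter sequences of the 5 nuclear members past 1.2-fold higher are shown because these genes lay above the rest of the nuclear set: the 250 bases before the RefSeq start (build GRCm38.p6), read 5′ to 3′ on the strand of the gene. Capitals mark matches to 2 motifs known from promoters of respiratory chain genes, an NRF1 motif searched as GCGCNTGCG and an ETS motif searched as CCGGAAG, both on either strand. The RefSeq start of Cox7a2l lies inside the longer gene interval of the annotation used for positions.
Cox7a2l (chr17:83514334-83514583, minus strand): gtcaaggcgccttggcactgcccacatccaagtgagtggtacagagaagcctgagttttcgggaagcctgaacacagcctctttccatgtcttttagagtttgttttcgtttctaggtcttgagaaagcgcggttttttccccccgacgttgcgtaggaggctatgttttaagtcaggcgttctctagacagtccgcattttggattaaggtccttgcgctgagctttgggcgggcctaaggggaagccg
Ndufaf4 (chr4:24897833-24898082, plus strand): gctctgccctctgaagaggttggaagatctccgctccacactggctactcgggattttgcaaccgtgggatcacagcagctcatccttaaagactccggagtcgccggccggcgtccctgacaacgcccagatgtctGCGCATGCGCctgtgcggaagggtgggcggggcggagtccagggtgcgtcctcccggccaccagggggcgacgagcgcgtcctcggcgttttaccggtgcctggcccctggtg
Ndufaf1 (chr2:119662835-119663084, minus strand): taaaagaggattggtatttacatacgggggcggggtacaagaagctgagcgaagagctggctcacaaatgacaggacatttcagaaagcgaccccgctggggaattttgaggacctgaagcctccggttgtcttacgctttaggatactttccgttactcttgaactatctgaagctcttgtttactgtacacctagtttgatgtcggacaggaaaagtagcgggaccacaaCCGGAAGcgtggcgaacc
Ndufaf2 (chr13:108158626-108158875, minus strand): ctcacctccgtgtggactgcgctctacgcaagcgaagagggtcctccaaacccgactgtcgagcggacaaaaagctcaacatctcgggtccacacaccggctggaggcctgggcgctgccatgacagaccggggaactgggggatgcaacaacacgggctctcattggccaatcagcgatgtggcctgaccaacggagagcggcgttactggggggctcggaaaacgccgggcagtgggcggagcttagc
Cox6b2 (chr7:4753095-4753344, minus strand): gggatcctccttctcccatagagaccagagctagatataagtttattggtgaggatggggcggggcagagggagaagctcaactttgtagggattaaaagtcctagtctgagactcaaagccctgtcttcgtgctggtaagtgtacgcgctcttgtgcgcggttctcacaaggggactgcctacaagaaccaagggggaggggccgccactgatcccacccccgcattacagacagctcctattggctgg
Ndufaf4 held 2 overlapping matches to the NRF1 motif, 1 on each strand, in the run of capitals, and Ndufaf1 held 1 match to the ETS motif. Cox7a2l, Ndufaf2 and Cox6b2 held neither in this window. Of the nuclear members, 76 of 92 had a promoter in the table. The NRF1 motif was in 17 of these (22.4%) against 5.88% of the 27025 genes in the table, and the ETS motif in 14 (18.4%) against 7.83%. By kind, the NRF1 motif was in 16 of 67 subunits and 1 of 9 factors, and the ETS motif in 12 of 67 and 2 of 9. The promoter motifs were therefore more frequent among the members than in the table as a whole, and they were found in both the subunits and the factors. A match of these letters is a description of the sequence and not a binding site.

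To compare cell types, cells were clustered without the oxidative phosphorylation genes among the variable genes, and clusters were named from marker genes. Of 22 clusters, 13 were named, and they gave 8 classes with 2406 Control and 1684 Mettl3-CKO cells. These were RPC-like (148 and 233 cells, led by Top2a and Mki67), neurogenic-like (130 and 151, Neurog2), Müller-like (366 and 226, Rlbp1), rod-like (1404 and 806, Nr2e3 and Sag), cone-like (97 and 107, Opn1sw), bipolar-like (157 and 62, Isl1), amacrine-like (70 and 68, Tfap2b) and microglia-like cells (34 and 31, C1qa). Cone-like and rod-like cells had the highest summed shares of both genomes in both libraries. In Control, nuclear members took 5.36% of non-mitochondrial UMIs in cone-like and 4.97% in rod-like cells, and between 2.25% (microglia-like) and 3.21% (Müller-like) in the other classes. Mitochondrial genes took 7.89% and 7.17% of all UMIs in cone-like and rod-like cells of Control and 4.18% to 5.80% elsewhere. In Mettl3-CKO, cone-like and rod-like cells were again the highest, at 4.88% and 4.81% for nuclear and 5.41% and 5.13% for mitochondrial genes. The mitochondrial share of rod-like cells rested on 1 of their 4 clusters, a Malat1-poor one at 21.8% in Control and 16.0% in Mettl3-CKO. The other 3 were between 4.87% and 6.04% in Control and between 4.21% and 4.90% in Mettl3-CKO, within or close to the range of the classes other than cone-like cells.

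**Figure D2:**
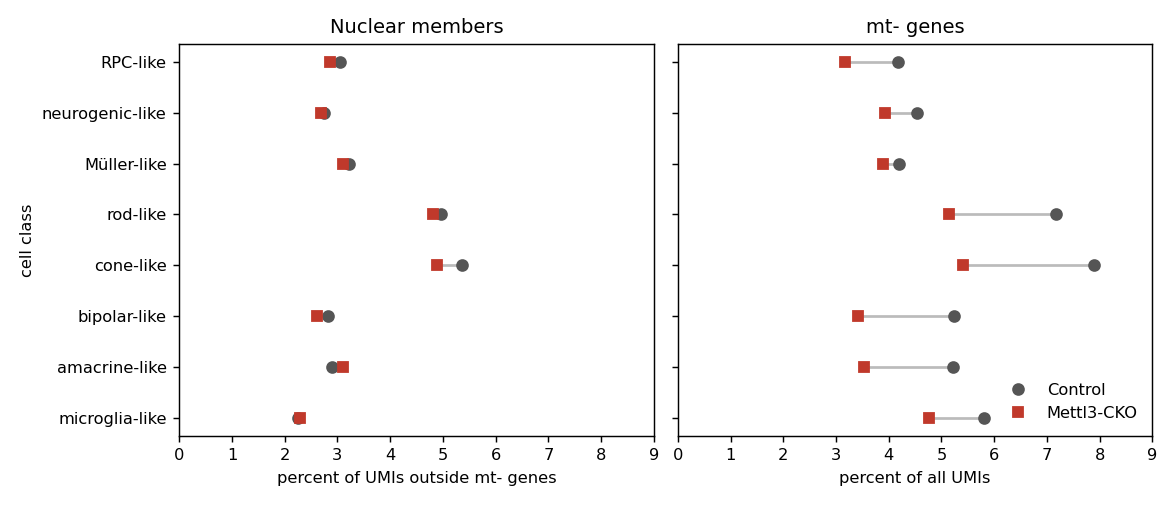
Summed share of UMIs of the nuclear members (left, percent of UMIs outside the mitochondrial genome) and of the 13 mitochondrial genes (right, percent of all UMIs) by cell class; circles are the Control and squares the Mettl3-CKO library, 1 value each. Cone-like and rod-like cells are highest for the nuclear genes in both libraries, and in all 8 classes the square of the mitochondrial share lies to the left of the circle.

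The lower mitochondrial level was present in each class, by different amounts. The ratio of Mettl3-CKO over Control was lowest in bipolar-like cells, at 0.638 (0.627 to 0.650), followed by cone-like (0.667), amacrine-like (0.668) and rod-like cells (0.701). RPC-like cells were at 0.7502 (0.742 to 0.759), microglia-like cells at 0.813 (0.794 to 0.834) and neurogenic-like cells at 0.858 (0.848 to 0.869). Müller-like cells were closest to 1, at 0.928 (0.919 to 0.937). The interval lay below 1 in 8 of 8 classes, and the ratio passed a 1.2-fold difference in 6, a count that ranged from 4 to 7 over the alternatives. In rod-like cells the ratio was 0.816 without the Malat1-poor clusters and 0.874, short of 1.2-fold, when cells with 4000 UMIs or more were taken and, from Mettl3-CKO, those without Xist. Microglia-like cells, which do not arise from the Cre-expressing lineage, were among these 6. They were few (34 and 31 cells) and shallow, with medians of 1556.5 and 1496 UMIs. Their ratio ranged from 0.618 to 0.881 over the alternatives, so it did not pass 1.2-fold in all of them. The part of free RNA in it was not tested. The nuclear ratio stayed within 1.2-fold in 8 of 8 classes, from 0.910 (0.900 to 0.921) in cone-like to 1.07 (1.05 to 1.09) in amacrine-like cells. The ratio of nuclear to mitochondrial UMIs was accordingly higher in Mettl3-CKO in every class, by 1.60 (1.56 to 1.64) in amacrine-like, 1.45 in bipolar-like, 1.38 in rod-like, 1.37 in cone-like, 1.25 in microglia-like, 1.24 in RPC-like, 1.14 in neurogenic-like and 1.04 (1.03 to 1.06) in Müller-like cells. Per cell, the median mitochondrial share was 5.69% (quartiles 4.36 and 7.84) in Control and 4.50% (3.56 and 5.84) in Mettl3-CKO rod-like cells, and 3.86% (2.66 and 5.87) and 3.14% (1.95 and 4.91) in Müller-like cells, so the ranges over cells overlapped widely. The Müller-like ratio depended on the processing. It was 0.809 at Leiden resolution 2 and 0.995 when the comparison took cells with 4000 UMIs or more and, from Mettl3-CKO, those without Xist. The ranges of the 4 lowest classes overlapped: bipolar-like 0.585 to 0.695, cone-like 0.599 to 0.798, amacrine-like 0.4895 to 0.846 and rod-like 0.593 to 0.874. Median UMIs per cell in Control and Mettl3-CKO were 7884 and 7370, 9057 and 13318, 8595.5 and 9417, and 4256 and 4537 in the same order. In these classes the mitochondrial share fell with UMIs per cell (Spearman rho -0.471 to -0.135). The part of depth in the order was not tested.

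**Figure D3:**
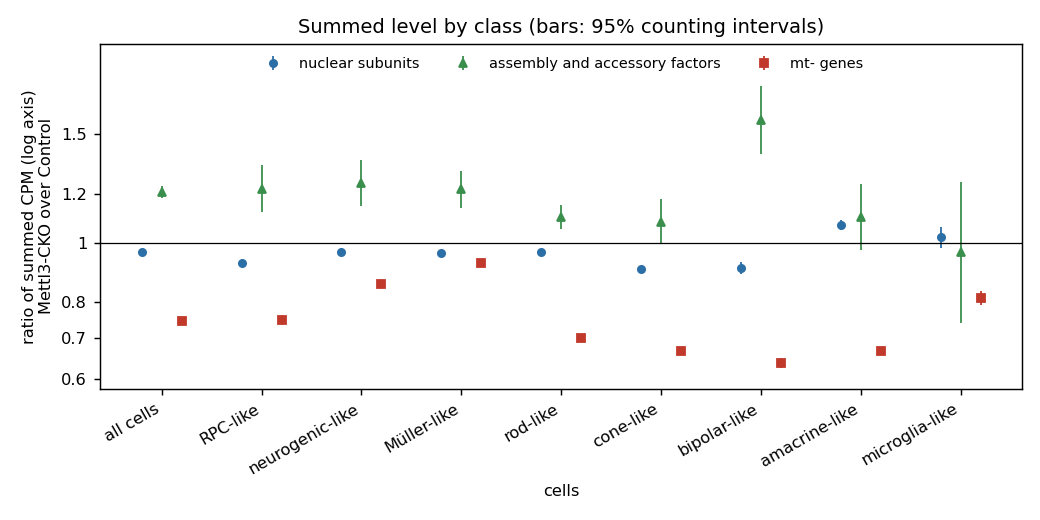
Ratio of summed CPM, Mettl3-CKO over Control, on a log axis for all cells and for each class; circles are the nuclear subunits, triangles the assembly and accessory factors and squares the mitochondrial genes, with 95% counting intervals. The mitochondrial genes lie below the nuclear subunits in every class, least so in Müller-like cells (0.928). The summed factors lie above the summed subunits in all classes but microglia-like cells. Gene by gene, 5 of the 10 factors were above and 5 below a log2 ratio of 0 in rod-like cells, with a median of -0.002.

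Among single mitochondrial genes, mt-Co1 was lower with its interval below 1 in 8 of 8 classes, from a log2 ratio of -0.80 in bipolar-like to -0.18 in Müller-like cells, and the intervals of the following genes were below 1 in all 8 classes too: mt-Co2, mt-Co3, mt-Nd2, mt-Nd4, mt-Atp6 and mt-Cytb. mt-Nd1 was lower in 6 classes and was level in neurogenic-like (3793.2 and 3793.5 CPM) and Müller-like cells (3362 and 3401 CPM). In rod-like cells 13 of 13 mitochondrial genes passed 1.2-fold lower, in RPC-like cells 10 of the 11 read, and in Müller-like cells 0 of the 12 read. Among nuclear members in rod-like cells, 2 of 85 were 1.2-fold higher and 3 lower, against 12.1% and 9.07% of 8295 genes. All of these were among the 10 assembly and accessory factors, and 0 of 75 nuclear subunits passed. In RPC-like cells, 5 of 83 were higher and 13 lower, against 24.3% and 13.3% of 5517 genes. In Müller-like cells, 7 of 84 were higher and 7 lower, against 24.7% and 15.6% of 6379 genes. For the higher direction the members' shares were thus below those of all genes in these 3 classes. In the lower direction the share of RPC-like cells was near that of all genes. In cone-like cells, 2 of 81 nuclear members were higher and 15 lower, against 21.8% and 16.1% of all genes read, and 11 of 11 mitochondrial genes were lower. Bipolar-like cells had 5 of 78 nuclear members higher and 25 lower, against 17.1% and 28.8%. In amacrine-like cells, 16 of 77 nuclear members were higher and 2 lower, against 22.1% and 19.6%. The share of higher members was thus not above that of all genes, and the share of lower members was below it. Over the alternatives, which include a larger fold, the amacrine-like counts ranged from 0 to 24 higher and from 0 to 8 lower. In neurogenic-like cells, 7 of 80 were higher and 4 lower, against 17.1% and 14.3%, and in microglia-like cells 7 of 41 and 5 of 41, against 22.0% and 21.8%. No mitochondrial gene read was 1.2-fold higher in any of the 8 classes.

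The clusters with little Malat1 carried a part of the mitochondrial difference. A cluster counted as Malat1-poor when its summed Malat1 was under 10000 CPM in Control, a limit set after the clusters were seen. Malat1 is an RNA that is retained in the nucleus. The 4 clusters (1 rod-like, 1 Müller-like, 1 RPC-like and 1 unnamed) held 481 Control and 248 Mettl3-CKO cells. Inside them, mitochondrial genes took 15.4% of UMIs in Control and 10.1% in Mettl3-CKO, and outside them 5.03% and 4.04%. They supplied 13.5% of all mitochondrial UMIs of Control and 5.81% of those of Mettl3-CKO. The rod-like one had a mitochondrial share of 21.8% in Control and 16.0% in Mettl3-CKO. Without the 4 clusters, the mitochondrial ratio over all cells was 0.796 (0.793 to 0.798), the nuclear ratio 0.996 (0.9928 to 0.9997) and the ratio of nuclear to mitochondrial UMIs 1.25 (1.25 to 1.26). In rod-like cells the nuclear ratio was then 1.01 (0.999 to 1.01) in place of 0.968. The mitochondrial ratio thus moved toward 1 and stayed below it. Over the 22 single clusters, the mitochondrial level was lower in Mettl3-CKO with an interval below 1 in 20.

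**Figure D4:**
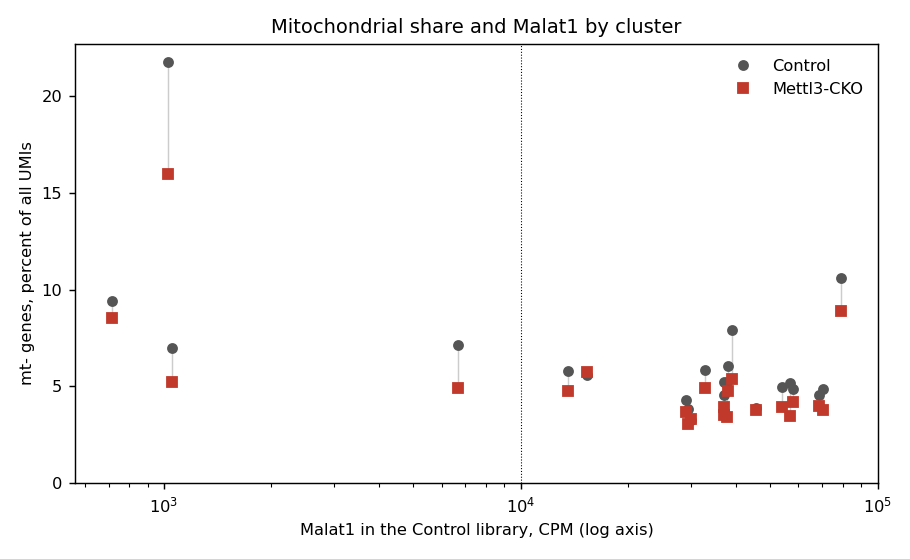
Share of UMIs from mitochondrial genes (percent, vertical axis) against summed Malat1 in the Control library (CPM, log axis) for the 22 clusters; circles are Control and squares Mettl3-CKO, joined by a line for each cluster, and the dotted line marks 10000 CPM. The 4 clusters to its left include the one with the highest share, 21.8% in Control and 16.0% in Mettl3-CKO, and most squares lie below their circles on both sides of the line.

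Cox7a2l was higher in 7 of 8 classes, with its interval above 1 in all 7. The log2 ratio was 1.08 (0.83 to 1.34) in bipolar-like cells (249.5 and 528.2 CPM), and between 0.31 and 0.43 in RPC-like, neurogenic-like, Müller-like, rod-like, cone-like and amacrine-like cells. In microglia-like cells it was -0.13 (-0.61 to 0.35). Ndufaf4 was higher in 7 classes too, with the interval above 1 in 3, namely Müller-like (0.69, 0.38 to 0.99), RPC-like (0.50, 0.13 to 0.89) and neurogenic-like cells (0.41, 0.04 to 0.79). In rod-like cells it was at 106.3 and 110.7 CPM, a log2 ratio of 0.06 (-0.12 to 0.24). In RPC-like cells the other 3 highest ratios belonged to Ndufaf2 (0.36), Uqcrfs1 (0.33) and Sdhc (0.32), and the lowest to Ndufa9 (-0.51), Cox4i2 (-0.45), Ndufa11 (-0.37) and Cox6b2 (-0.36). Among these, the intervals of Ndufaf2, Sdhc and Cox6b2 included 0.

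Some members had levels that differed widely between cell classes. The widest ranges across classes of the Control library included those of Cox4i2, Ndufa4l2, Cox6b2, Ndufaf5 and Atp5o. Cox4i2, the isoform of subunit 4 known to be used under low oxygen, was at 578.6 CPM in Müller-like and 201.2 CPM in RPC-like cells of Control, and at 7.71 CPM in rod-like cells. Rlbp1, a Müller glia gene that rod-like cells should lack, was at 1850.0 CPM in Müller-like and 19.8 CPM in rod-like cells of Control, so a low level in rod-like cells cannot be told apart from free RNA. Of the UMIs of Cox4i1 and Cox4i2 together, Cox4i2 held 35.0% (33.5 to 36.4%) in Müller-like cells of Control and 28.2% (26.4 to 29.97%) in Mettl3-CKO. In RPC-like cells its share was 16.7% and 13.05%. Its own level in Müller-like cells was 578.6 and 432.4 CPM, a log2 ratio of -0.42 (-0.55 to -0.29), and over all cells 111.0 and 77.8 CPM (-0.51). Cox4i1, the common isoform, was level in Müller-like cells, at 1077 and 1103 CPM. Of the complete cells read, 366 in Control and 226 in Mettl3-CKO were named Müller-like. Unnamed clusters nearest to the Müller marker list held 130 and 167, 99 and 68, and 31 and 61 cells. These numbers therefore do not give the share of Müller glia. Over the alternatives, the Cox4i2 ratio over all cells ranged from 0.643 to 0.838, and the part of cell composition in it was not tested.

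Ndufa4l2, also a gene known to be induced under low oxygen, was likewise highest in Müller-like and then in RPC-like cells. Its share of its pair extended further, at 38.3% in neurogenic-like cells of Control, where Cox4i2 held 3.38% of its own pair. Ndufa4l2 was at 1682 CPM in Müller-like, 1010.3 in RPC-like and 332.8 in neurogenic-like cells of Control and at 14.2 CPM in cone-like cells. It held 74.6% (73.4 to 75.7%) of the UMIs of Ndufa4 and Ndufa4l2 in Müller-like cells of Control and 69.0% (67.5 to 70.5%) in Mettl3-CKO. The level in Müller-like cells was 1682 and 1577 CPM, a log2 ratio of -0.09 (-0.16 to -0.02). Ndufa4 was at 574.0 and 708.5 CPM in the same cells, a log2 ratio of 0.30 (0.19 to 0.42), so most of the difference in share lay with Ndufa4. The direction of Ndufa4l2 was not stable, with a ratio of 1.13 (1.06 to 1.19) at resolution 2 and 1.02 (0.960 to 1.08) when cells with 4000 UMIs or more were taken and, from Mettl3-CKO, those with Xist. The gene Shmt2 lies antisense to it.

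**Figure D5:**
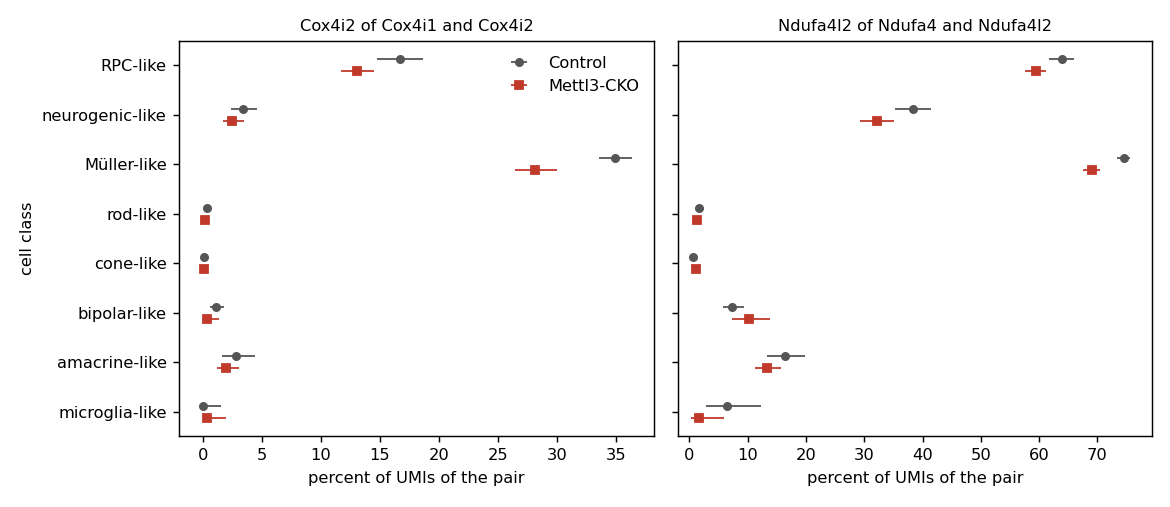
Share of UMIs of the pair held by Cox4i2 (left) and by Ndufa4l2 (right), in percent, by class; circles are Control, squares Mettl3-CKO, and bars exact binomial 95% intervals. Both isoforms are highest in Müller-like cells, followed by RPC-like cells, and both are lower in Mettl3-CKO in these 2 classes.

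Cox6b2, the testis isoform of subunit 6B, lay in opposite directions in different classes. In Müller-like cells it was at 22.6 CPM in Control (59 UMIs) and 77.8 CPM in Mettl3-CKO (126 UMIs), a log2 ratio of 1.78 (1.33 to 2.25), the highest ratio of the 84 nuclear members read in that class. In RPC-like cells it was at 93.6 and 73.0 CPM, and in cone-like cells at 82.6 and 45.1 CPM, a log2 ratio of -0.87 (-1.38 to -0.37). The Mettl3-CKO Müller-like cells were thus at about the level of RPC-like cells. Its share of Cox6b1 and Cox6b2 UMIs in Müller-like cells was 3.65% (2.79 to 4.68%) and 12.5% (10.5 to 14.7%). The cone-like ratio ranged from 0.484 to 0.850 over the alternatives, with an interval that held 1 in some of them. The Müller-like ratio ranged from 1.93 to 10.7 over the alternatives. In cells with 4000 UMIs or more the Müller-like ratio came to 1.93 (1.25 to 2.94) when the Mettl3-CKO cells had Xist. It came to 5.34 (3.75 to 7.63) when they lacked it. Over all cells its log2 ratio of 0.42 (0.23 to 0.61) did not persist in cells with Xist, where the ratio was 1.06 (0.904 to 1.25). Rlbp1, a marker of mature Müller glia, was at 1850.0 and 1069.9 CPM in the same cells, and its part in the Cox6b2 result was not tested. The lowest nuclear members in Müller-like cells were Uqcrc2 (-0.44), Ndufc2 (-0.44), Cox4i2 (-0.42) and Ndufv2 (-0.39), and after Cox6b2 the highest were Ndufaf4 (0.69), Ndufaf1 (0.44, with an interval that includes 0) and Cox7a2l (0.43).

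Other members with wide ranges were highest in cone-like cells. Cox8a was at 4281 CPM in cone-like and 2602 CPM in rod-like cells of Control and at 710.7 CPM in neurogenic-like cells. Atp5o, a stalk subunit of the ATP synthase, was at 975.2 CPM in cone-like against 131.4 CPM in microglia-like cells. Ndufaf5 was at 122.8 CPM in cone-like cells against 21.4 CPM in rod-like cells. The 3 genes for the c subunit of the ATP synthase, whose mature proteins are identical, were used in different proportions. In Control, Atp5g1 held 43.4% of their UMIs in cone-like and 20.7% in RPC-like cells, and Atp5g2 held 57.5% in RPC-like and 25.1% in cone-like cells. In Mettl3-CKO these shares were 40.1% and 20.6% for Atp5g1 and 58.5% and 27.9% for Atp5g2, so both libraries had the same order of these 2 classes. Cox7a1, the muscle isoform of subunit 7A, held 0.495% and 0.491% of the UMIs of Cox7a1 and Cox7a2 over all cells.

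Genes that work around the chain were read in lists outside the rule. The counts at a fold of 1.2 over all cells stand beside 16.5% of all genes read that were higher and 8.54% that were lower. Of 46 assembly and accessory genes of the chain that the rule leaves out, 5 were 1.2-fold higher and 3 lower, with a median log2 ratio of -0.01; the electron carrier Cycs was at -0.08 and the ATP synthase inhibitor Atpif1 at -0.01. Coa7, a complex IV assembly factor, was the highest of them, at 0.65 (27.4 and 43.2 CPM). Of 27 genes that express and maintain the mitochondrial genome, 4 were higher and 1 lower, with a median of 0.07. The mitochondrial transcription factor Tfam was at 57.7 and 53.5 CPM, a log2 ratio of -0.11 (-0.23 to 0.01). The RNA polymerase Polrmt was at 0.18 (-0.15 to 0.50) and the RNA-binding protein Lrpprc at -0.05 (-0.23 to 0.13), and all 3 intervals included 0. Of 11 transcription factors and coactivators of mitochondrial biogenesis, 2 were higher and 0 lower, with a median of 0.06. Of 77 mitochondrial ribosomal protein genes read, 10 were higher and 0 lower (median 0.06), and of 77 cytosolic ones 1 and 0 (median 0.09).

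The fuel pathways differed from each other. Of 16 citric acid cycle genes, 0 passed in either direction, the median was -0.08 and Cs, citrate synthase, was at 76.0 and 75.9 CPM. Of 17 glycolysis genes read, 0 were 1.2-fold higher and 10 were lower, with a median of -0.31, beside 16.5% and 8.54% of all genes. Among them, Aldoc was at 56.0 and 24.3 CPM (log2 -1.21), Pfkp at 94.8 and 47.5 CPM (-0.997) and Ldha at 2339 and 1889 CPM (-0.31). The mitochondrial transcripts and those for glycolysis were thus both lower over all cells. Of citric acid cycle genes 0, and of the 78 nuclear subunits read 2, passed 1.2-fold. Both medians were -0.08, slightly below that of all genes. By class, mitochondrial and glycolysis genes did not always go together. In rod-like cells 13 of 13 and 3 of 16 were lower, beside 9.07% of all genes. In Müller-like cells 0 of 12 and 10 of 16 were lower, beside 15.6%. In microglia-like cells 6 of 10 mitochondrial genes were lower and 8 of 10 glycolysis genes higher, beside 21.8% and 22.0%. In bipolar-like cells 10 of 11 and 11 of 13 were lower, beside 28.8%. Of 10 mitochondrial stress response genes read, 1 was higher and 0 lower, and of 14 dissociation response genes 3 were higher and 0 lower, beside the same 16.5% and 8.54%. The dissociation genes were divided, with 8 above and 6 below a log2 ratio of 0 and a median of 0.03. Fosb, 1 of the 8, was at 264.9 and 322.4 CPM. The summed level of the list was slightly lower in Mettl3-CKO, with a ratio of 0.980 (0.973 to 0.987). The part of dissociation in the mitochondrial result was not tested.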

How the data were processed

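Retinas were digested with papain and captured with 10x Genomics 3′ v3.1 chemistry. Per the labels and the study's methods, the tools of the authors were fastp for trimming, Cell Ranger 3.1.0 for alignment to mouse build GRCm38 (mm10) and counting, and Seurat 3.1 for the cells; whether strand was used was not given in the sources used here. As deposited, each value is a whole UMI count per gene and cell with no normalization by the authors. The matrices as read here ended early, and complete cells were used, 3994 of 5995 barcodes in Control and 3109 of 6992 in Mettl3-CKO; the other cells were not analysed here. The barcode numbers equal the cell numbers that the study gives after its filter, although 237 and 86 of the cells read do not meet it, which was not resolved. All complete cells entered the values reported.

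For clustering, each cell was brought to 10000 UMIs on a log scale. Variable genes, 2000 in number and chosen without the members, the pathway lists, sex-linked genes and Mettl3, gave 10 principal components and 20 neighbours for Leiden clustering at resolution 1 (scanpy 1.11.5, leidenalg 0.10.2, Python 3.11.15). A class name needed at least 3 markers 1.5-fold up and seen in 20% of the cluster, at least 1 of its markers and more than of any other list among the 10 leading genes, and a mean log2 fold of 1, or of 0.5 with 3 leading markers; these limits were set after the clusters were seen. Doublets were kept. Scrublet marked 61 Control and 6 Mettl3-CKO cells, too few in the second for the caller to have worked. UMIs were summed per class and library. Levels carry exact Poisson, ratios exact conditional binomial and shares exact binomial (Clopper-Pearson) intervals; ratios of nuclear to mitochondrial UMIs carry log-normal ones, all at 95% and for counting error only. A gene was read where both libraries together held at least 100 UMIs. The interval code was tested on simulated data. There are no p-values, since a group had 1 library. Gene IDs of all 105 members were found in the GENCODE annotation of GRCm38; 36 overlap another gene of the files.

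Named are all mitochondrial genes, the 4 highest and 4 lowest nuclear ratios in all, RPC-like and Müller-like cells, the nuclear subunit with the most UMIs per complex, the 6 widest ranges over classes (1 of these genes is not reported here), the isoform sets, X-linked members and a few pathway genes; Coa7, Aldoc, Pfkp, Ldha, Fosb, Rlbp1 and the members named for complexes I, III and V beside these were chosen after their values were seen. Members and lists were chosen with earlier results of these data known. Alternatives covered scaling, cell filters, doublets, thinning to 1000 UMIs, depth, Xist, cell weighting, resolution (2 and 0.5), fold (1.5), the UMI limit, X-linked members and assembly factors.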

Additional observations from a re-analysis of the deposited data

Results flagged for a closer look

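The summed nuclear genes of oxidative phosphorylation lay on the other side of 1 in amacrine-like cells, with a Mettl3-CKO over Control ratio of 1.069, than in RPC-like (0.9332), neurogenic-like (0.9739), Müller-like (0.9689), rod-like (0.9676), cone-like (0.9103) and bipolar-like cells (0.9236). Microglia-like cells lay on the same side as amacrine-like cells, at 1.019 (0.981 to 1.06), an interval that holds 1. Over the alternatives the amacrine-like ratio ranged from 1.025 to 1.088 and the microglia-like ratio from 1.001 to 1.104. Of the classes below 1, 4 reached above it under at least 1 alternative: neurogenic-like (1.001), Müller-like (1.037), rod-like (1.027) and cone-like cells (1.055). Cox6b2 had a ratio of 3.441 in Müller-like and 0.546 in cone-like cells. These values are given because the direction was opposite between classes, and neither Cox6b2 interval held 1 in the main values. The cone-like interval did hold 1 under some alternatives. The ratio was 0.8496 (0.4942 to 1.405) against deep cells without Xist and 0.723 (0.2648 to 1.919) after thinning. The differences between classes were not tested, since there was 1 library per group.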

How the results depend on the processing

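Of 1978 recomputed values, 1506 were classed as the same, 452 as moved and 20 as changed in direction. With libraries this deep, the intervals are narrow and small shifts count. Counts and medians had no counting interval. The 20 do not hold every crossing of a ratio of 1. At their lowest, the factors in cone-like cells went from 1.081 to 0.9632 and Ndufaf4 in amacrine-like cells from 1.354 to 0.7866. Ndufaf2 in Müller-like cells went from 1.166 to 0.7917 and Cox6b2 in rod-like cells from 1.347 to 0.28. The median log2 ratio of nuclear members in Müller-like cells went from -0.068 to 0.037 at its highest. Over all cells and all alternatives, the mitochondrial ratio ranged from 0.6648 to 0.8181, the nuclear ratio from 0.9212 to 1.023, nuclear per mitochondrial UMIs from 1.193 to 1.386 and the factors from 1.158 to 1.225, so the mitochondrial genes were lower in each and the direction of the nuclear sum was not stable.

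In the same order (nuclear, mitochondrial and, where it moved, nuclear per mitochondrial), the values were 0.9842 and 0.7574 when scaled by all UMIs; 0.951 and 0.7318 with median-of-ratios scaling; 0.9845, 0.7913 and 1.244 in cells that met the study's filter; 0.9218, 0.684 and 1.348 after thinning to 1000 UMIs, with the factors at 1.158 and 9 nuclear members lower; 0.9761, 0.8181 and 1.193 against deep cells without Xist, with 4 nuclear and 5 mitochondrial genes lower; and 0.9965, 0.78 and 1.278 against deep cells with Xist, with 3 nuclear members higher and 2 lower. Means of per-cell CPM gave 0.9212, 0.6648 and 1.386, the factors at 1.179, 2 nuclear members higher and 4 lower. Weighting Mettl3-CKO cells to the cluster shares of Control gave 1.023, 0.8047 and 1.271, the nuclear subunits at 1.019 and 2 members lower. A fold of 1.5 left 0 members in each direction and genome, no UMI limit gave 2 lower, and leaving out the assembly factors gave 0.965, a ratio per mitochondrial UMI of 1.292 and 1 member higher. With alternatives chosen after seeing the data, the values were 0.9895, 0.7931 and 1.248 in cells of 4000 UMIs or more and 0.9962, 0.7955 and 1.252 without the Malat1-poor clusters. The share of all genes past the fold under each alternative is not given here. The counts of members in this paragraph are therefore not read as a result about the members.

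Other values classed as changed in direction were complex III (0.9998 by median-of-ratios, 0.9865 thinned, 0.9853 per cell), Ndufaf4 in RPC-like cells (0.6649 thinned) and the nuclear sum in neurogenic-like cells (1.001 thinned). Against deep cells without Xist these were the nuclear sum and subunits in rod-like (1.027, 1.024) and cone-like cells (1.055, 1.053, median log2 0.08108), and with Xist Ndufa4l2 in RPC-like (1.046), neurogenic-like (1.128) and Müller-like cells (1.02). At resolution 2 they were the nuclear sum, subunits and Ndufa4l2 in Müller-like cells (1.037, 1.035, 1.125), and without Malat1-poor clusters the nuclear sum and subunits in rod-like cells (1.005, 1.003). The cause was not tested. No paired analysis was possible because each group had 1 library, and no replicate could be left out.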

Other observations

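The clusters without a class name held the same pattern for the most part. In the 3 largest of them, which expressed the photoreceptor and bipolar precursor genes Otx2, Prdm1 and Neurod1, the mitochondrial ratio was 0.768, 0.874 and 0.784. There were exceptions in 2 unnamed clusters. One, led by the DNA replication genes Mcm6, Mcm3 and Mcm5 (31 Control and 61 Mettl3-CKO cells), had a mitochondrial ratio of 1.003 (0.980 to 1.03). The other, led by Ttr, Rgs5 and Igfbp7 (45 and 17 cells), had a ratio of 1.03 (1.005 to 1.05), and its median cell had 3054 UMIs in Control and 12383 in Mettl3-CKO.

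Across single cells, the mitochondrial share and the nuclear share of UMIs had a Spearman rho of 0.542 in 1404 Control and 0.383 in 806 Mettl3-CKO rod-like cells, and between -0.343 and 0.321 in the other classes. The cells of a class share a library, and both measures share each cell's depth, so these values are a description.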
